A study of Mus musculus with 10 samples.

Results

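The 8 genes described here are 7 immunity related GTPases (Irgm1, Irgm2, Igtp, Iigp1, Ifi47, Tgtp1 and Tgtp2) and 1 very large GTPase gene, Gm4070, of 48476 genes in the series table. They were chosen because these same libraries had already shown them lower with FoxO6, and the study itself labelled 4 of them (Irgm1, Irgm2, Tgtp1 and Tgtp2) in its plot of day 3, so all their differences between the arms below are a description of measured values and carry no p-value. mRNA was sequenced from mouse embryonic fibroblasts (MEF, cells grown from E13.5 embryos of the CBA/CaJ X C57BL/6J cross, carrying an Oct4-GFP reporter per the methods of the study) that were infected with retroviruses made in PlatE packaging cells and kept in iCD1, a medium for reprogramming. Both arms received OKS, the reprogramming factors Oct4, Klf4 and Sox2. The control arm received DsRed, a red fluorescent protein, and the other arm received the forkhead transcription factor FoxO6. Cells of each arm were taken on days 0, 1, 3, 5 and 7 as single libraries, 10 in all, and the comparison addressed what FoxO6 changes on the way to pluripotency. There were no replicates, the viral factors were expressed in a mixed population of infected cells, and no label says whether the time points of an arm were separate infections.

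Immunity related GTPases are proteins that mouse cells make in response to interferon and that act against bacteria and parasites which live inside a membrane vacuole. The GMS class (Irgm1, Irgm2 and Igtp, which is also called Irgm3) sits on the cell's own membranes and holds the other class inactive there. The GKS class (Iigp1, also called Irga6, Ifi47, also called Irgd, and Tgtp1 and Tgtp2, which both encode Irgb6) is loaded onto the vacuole of the pathogen and helps to break it. Very large GTPases are a separate and much larger interferon-inducible family of unclear function. In fibroblasts these genes are switched on by interferon gamma, which acts through the GAS element, and by type I interferon, which acts through the ISRE.

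Promoter windows of 300 bases, from 250 before to 50 after the start of a gene, were given for 6 of the 8 members by RefSeq on the assembly GRCm38.p6. They were searched on both strands for GAS (TTCNNNGAA), ISRE (GAAA, any 2 bases, GAAA) and the forkhead motif TGTTTAC. Of these 6 windows, 5 held an ISRE, 4 held a GAS and 0 held the forkhead letters, which only says that these letters are not in these windows. Of all 32851 windows of the same length, 3.44% held an ISRE, 8.3% a GAS, 0.454% both and 3.65% the forkhead motif. The 4 windows with both motifs were those of Igtp, Irgm2, Tgtp1 and Tgtp2, and the window of Ifi47 held none of the 3 motifs. The stretches that hold the matches are shown because 4 genes of both classes carry the same arrangement, with a GAS followed after 2 bases by an ISRE. Capitals mark the matched letters, and each stretch is read 5′ to 3′ on the strand of its gene. They lie at chr11:48871421-48871479 (minus strand, Irgm1), chr11:48992299-48992358 (minus strand, Tgtp1), chr11:49064258-49064317 (minus strand, Tgtp2), chr11:58199487-58199546 (plus strand, Igtp) and chr11:58214878-58214937 (plus strand, Irgm2).
Irgm1: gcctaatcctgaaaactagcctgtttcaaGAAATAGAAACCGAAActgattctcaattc
Igtp: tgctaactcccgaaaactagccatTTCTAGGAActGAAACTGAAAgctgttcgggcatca
Irgm2: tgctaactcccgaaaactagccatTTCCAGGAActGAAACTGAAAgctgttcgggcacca
Tgtp1: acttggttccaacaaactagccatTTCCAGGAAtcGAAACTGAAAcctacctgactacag
Tgtp2: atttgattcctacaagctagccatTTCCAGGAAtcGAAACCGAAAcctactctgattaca

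In Irgm1 the capitals mark 2 ISRE matches that overlap each other, beginning 30 and 24 bases before the start. The ISRE began 34 bases before the start in Igtp, 64 in Irgm2, 77 in Tgtp1 and 70 in Tgtp2. Aligned on the ISRE match nearest the start, without gaps over 45 bases, Igtp and Irgm2 shared 44 bases and Tgtp1 and Tgtp2 shared 40. Across these pairs 32 to 34 bases were shared, and Irgm1 shared 26 or 27 with each of the other 4. A match of this kind is a description of the sequence and not a measured binding site.

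**Figure D1:**
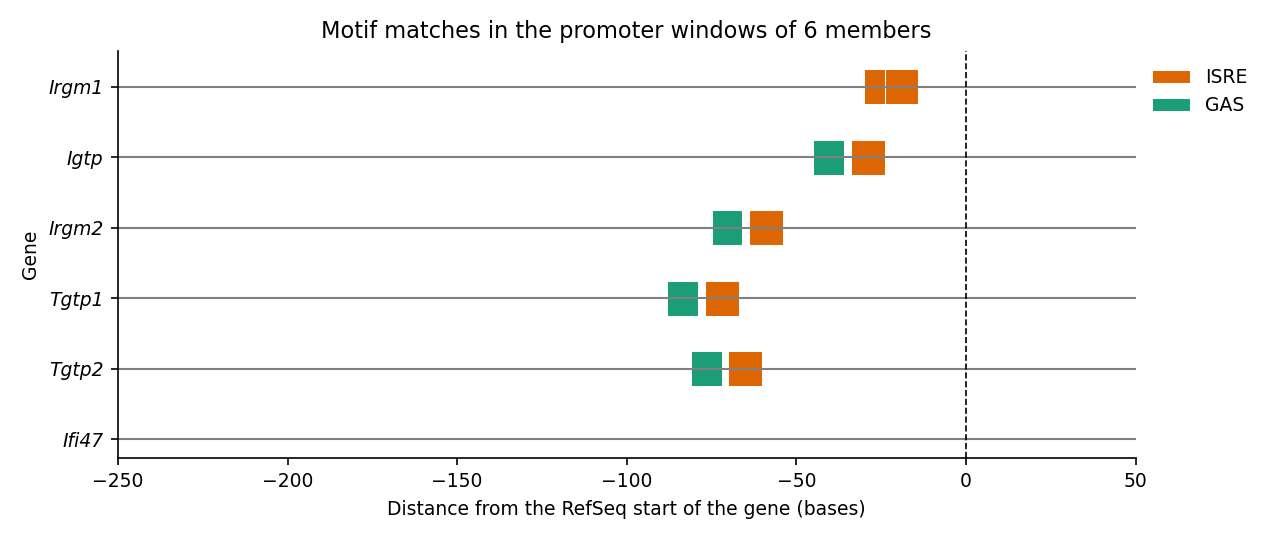
Motif matches (bars to scale) in the promoter windows of 6 members, plotted as distance in bases from the RefSeq start (dashed line). Igtp, Irgm2, Tgtp1 and Tgtp2 each carry a GAS just upstream of an ISRE, Irgm1 carries 2 overlapping ISRE matches, and Ifi47 carries none.

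The annotation (GENCODE M21 on GRCm38, the assembly that the files call mm10) places 6 members in 2 groups on chromosome 11. Irgm1 (chr11:48861968-48871683), Tgtp1 (chr11:48985327-48994172), Tgtp2 (chr11:49057194-49064206) and Ifi47 (chr11:49076587-49096974) lie within 235 kb. Igtp (chr11:58199556-58207591) and Irgm2 (chr11:58199618-58222782) lie within 23.2 kb and overlap on the same strand over 7974 bases. Iigp1 lies on chromosome 18 and Gm4070 on chromosome 7 (chr7:105895139-105953967).

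The libraries held 1208379 to 2225750 expected counts (median 1601151), and many values under a few TPM rest on few reads. Foxo6 stood at 0.61 to 2.29 TPM in the 5 DsRed libraries and at 762 to 1356 TPM in the 5 FoxO6 libraries, day 0 included, so every library matched its label. The 10 fibroblast markers summed to 7883 TPM at day 0 and 2420 TPM at day 7 in the DsRed arm, and to 6965 and 2667 TPM in the FoxO6 arm, so the fibroblast label held at day 0. Macrophage markers summed to 15.1 to 60.7 TPM in the DsRed arm and 23.9 to 31.2 TPM in the FoxO6 arm over 11 genes, most of it Cd68. T and NK cell markers summed to at most 6.76 and 20.6 TPM, most of it Cd3g, which was listed at 16.4 and 19.7 TPM at days 5 and 7 with FoxO6 and at 4.55 and 6.42 TPM with DsRed. Of the other 9 genes, Nkg7, Klrd1, Ncr1 and Gzma were at 0 in all libraries. Levels below are TPM, a scale per gene length and per total of transcripts, with exact Poisson 95% intervals in the plots, and folds are ratios of reads scaled by library size with TMM, with exact conditional 95% intervals. Both kinds of interval cover counting error only and say nothing of the spread between cultures. In bulk RNA, fewer cells that express a gene and less RNA of it per cell cannot be told apart.

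All 8 members were low in both arms at days 0 and 1 and were higher in the DsRed library than in the FoxO6 library at days 3, 5 and 7. Irgm1, the GMS regulator that guards lysosomal and other host membranes, was the most abundant member at the start. Its levels in the DsRed arm at days 0, 1, 3, 5 and 7 were 24.4, 30.1, 368, 592 and 350 TPM, and in the FoxO6 arm they were 18.3, 30.2, 51.9, 216 and 134 TPM. The arms were level at day 1 and apart at the 3 later days, where the FoxO6 library at day 5 still lay below the DsRed library at day 3. The fold between the arms was 7.06 (5.74 to 8.76) at day 3, 2.85 (2.54 to 3.19) at day 5 and 2.39 (2.07 to 2.77) at day 7. By the point value Irgm1 had the smallest fold of the 8 members on each of these days, and its interval overlapped that of Irgm2 on all 3, those of Iigp1, Ifi47 and Tgtp2 at day 3 and those of Tgtp1 and Ifi47 at day 7.

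Irgm2, the GMS protein of the Golgi, was measured in the DsRed arm at 0, 2.72, 80.7, 143 and 53.4 TPM over the 5 days and in the FoxO6 arm at 1.57, 3.22, 9.06, 46.0 and 16.8 TPM. At day 0 it was listed only in the FoxO6 library, from 6 reads. Its fold was 9.09 (6.17 to 13.8) at day 3, 3.21 (2.65 to 3.91) at day 5 and 2.86 (2.09 to 3.98) at day 7, close to Irgm1 at each day. Igtp, the GMS protein of the endoplasmic reticulum, was measured at 0.87, 1.55, 138, 435 and 197 TPM in the DsRed arm. In the FoxO6 arm Igtp was measured at 0, 0.69, 8.38, 49.8 and 45.0 TPM. Its fold was larger than those of Irgm1 and Irgm2 at day 5, at 8.93 (7.21 to 11.2), and was 16.4 (9.83 to 29.2) at day 3 and 3.98 (3.11 to 5.14) at day 7.

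Of the GKS effectors, Tgtp1 stood highest in the DsRed arm, with 1.12, 3.35, 366, 685 and 262 TPM against 0, 0, 9.92, 91.9 and 99.1 TPM in the FoxO6 arm. Its fold of 55.3 (34.3 to 95.4) at day 3 was the largest of any member on that day by the point value, and it narrowed to 7.48 (6.53 to 8.58) at day 5 and 2.65 (2.27 to 3.10) at day 7. At day 1 Tgtp1 had 7 reads in the DsRed library and 0 in the FoxO6 library, and with its near copy Tgtp2 added the day 1 fold was 7.70 with an interval of 0.989 to 347, which includes 1. Tgtp2 itself was measured at 0, 0, 46.3, 336 and 129 TPM in the DsRed arm and at 0.33, 3.96, 1.31, 10.6 and 8.42 TPM in the FoxO6 arm. The 3.96 TPM at day 1 came from 1 read. Its fold was 23.0 (8.56 to 86.7) at day 3, 38.6 (25.9 to 60.0) at day 5 and 13.7 (8.84 to 22.5) at day 7.

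Iigp1, one of the first effectors to reach a parasite vacuole, was the least abundant member in the DsRed arm at days 3, 5 and 7. It was listed at 0 in both arms at days 0 and 1, at 11.9, 54.4 and 23.1 TPM at the later days with DsRed, and at 0.36, 6.13 and 3.28 TPM with FoxO6. The day 3 value with FoxO6 was 1 read against 25, a fold of 33.8 with an interval of 5.53 to 1386. At days 5 and 7 the folds were 8.67 (5.29 to 15.0) and 6.13 (3.04 to 14.0). Ifi47 was measured at 0.96, 0, 71.9, 215 and 100.4 TPM in the DsRed arm and at 1.35, 0.75, 5.08, 33.3 and 29.6 TPM in the FoxO6 arm. Its folds of 14.2 (6.87 to 33.9), 6.49 (4.82 to 8.87) and 3.10 (2.20 to 4.47) followed the same order over days 3, 5 and 7 as those of Igtp.

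Gm4070, the very large GTPase gene, was measured at 4.08, 0.61, 30.7, 102.5 and 45.4 TPM in the DsRed arm and at 2.74, 2.82, 0.53, 14.6 and 2.75 TPM in the FoxO6 arm. By reads it was lower at day 1 than at day 0 in both arms, with 4 against 23 with DsRed, a ratio of 0.131 (0.033 to 0.385), and 4 against 27 with FoxO6, a ratio of 0.191 (0.0486 to 0.549). In TPM the FoxO6 arm did not fall between these days, at 2.74 and 2.82. At day 3 in the FoxO6 arm Gm4070 was lower than at day 0 by reads too, with 4.5 reads against 27, a ratio of 0.159 (0.0405 to 0.458). The fold between the arms was 46.2 (17.7 to 172) at day 3, 10.2 (8.12 to 12.9) at day 5 and 13.4 (8.74 to 21.7) at day 7. Its FoxO6 level at day 7 was 1.12 times that at day 0, with an interval of 0.609 to 2.05. With the reads of its near copy Gvin1 added, that ratio was 2.19 (1.32 to 3.69), and the ratio of day 3 to day 0 was 0.359 (0.148 to 0.786). In the DsRed arm the ratio of day 1 to day 0 was then 0.263 (0.102 to 0.609).

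**Figure D2:**
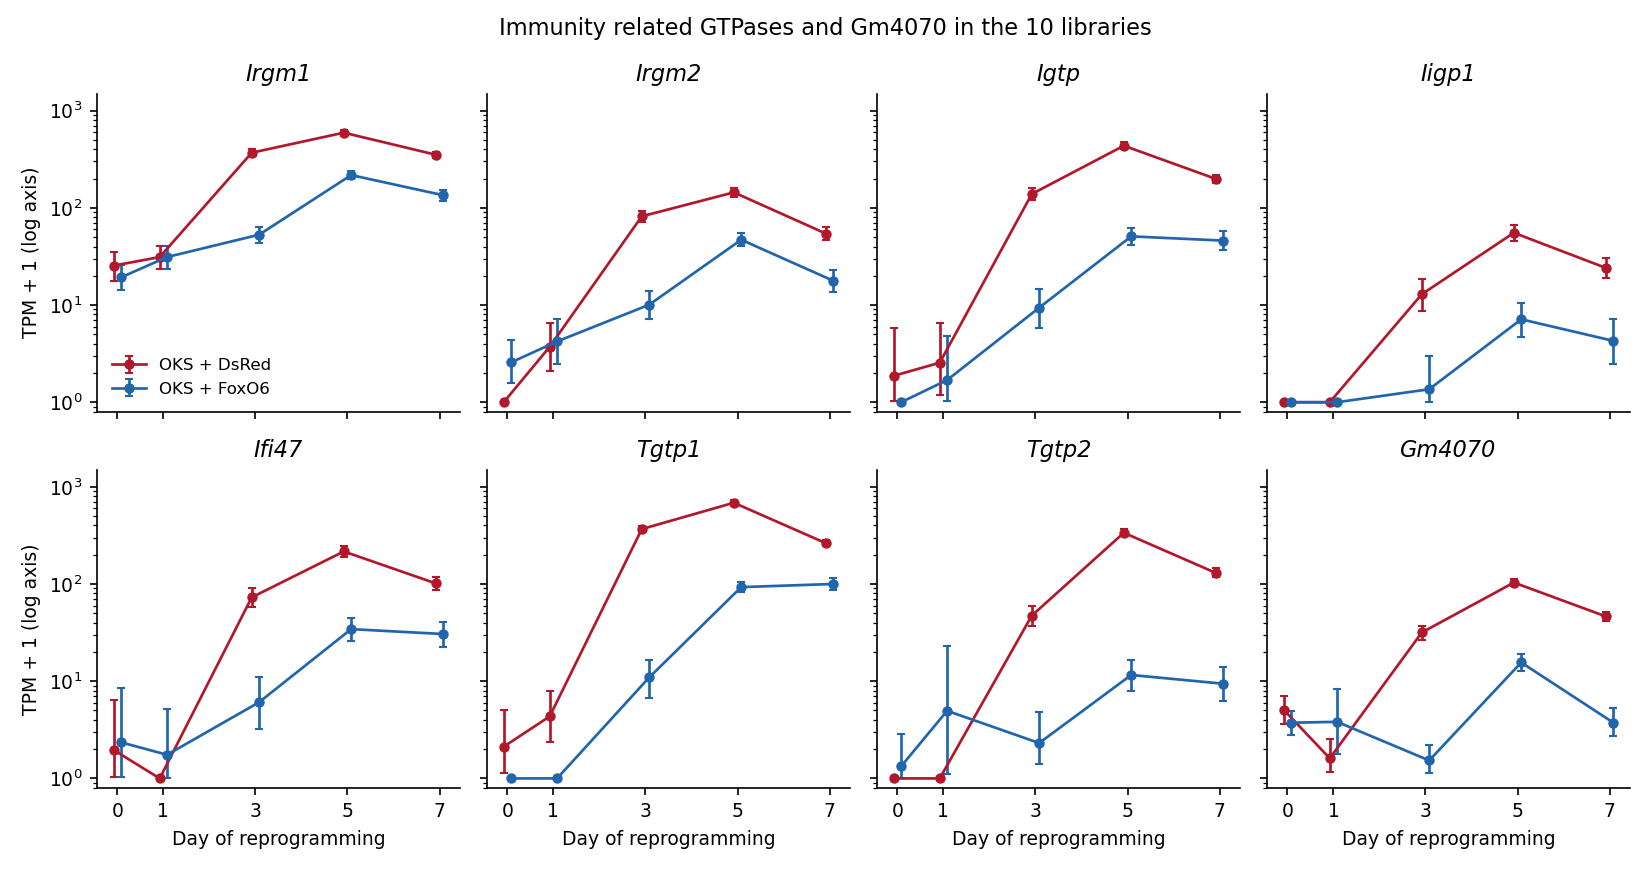
TPM + 1 (log axis) of each of the 8 genes against day in the OKS + DsRed arm (red) and the OKS + FoxO6 arm (blue), 1 library per point, with bars for the exact Poisson 95% interval of the reads where there were any. At days 0 and 1 the levels are low, most rest on few reads and neither arm is above the other throughout, and at days 3, 5 and 7 every red point lies above the blue point of its day.

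By the 2-fold threshold of the study, applied here to TPM + 1, 8 of 8 members were lower with FoxO6 on each of days 3, 5 and 7. Of the genes at 1 TPM or more in either library of the day, 15.5%, 15.0% and 21.2% were lower by that much on these days. Since the members were picked on these contrasts, their count carries no support of its own. At day 0, 1 member was lower (Tgtp1, 9.42% of all genes) and 1 was higher (Irgm2, 14.7% of all genes), and at day 1, 1 was lower (Tgtp1, 13.3% of all genes) and 2 were higher (Tgtp2 and Gm4070, 11.3% of all genes), all from 7 reads or fewer in each library. The median difference of the members in log2(TPM + 1), FoxO6 minus DsRed, over the 5 days was −0.20, 0.09, −3.74, −2.81 and −1.92. The medians over all genes measured that day were 0.13, −0.01, −0.01, 0.01 and −0.20. With TMM-scaled CPM in place of TPM the median over all genes at day 7 was −0.07, a shift of the whole scale that leaves 8 of 8 members lower by more than 2-fold.

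**Figure D3:**
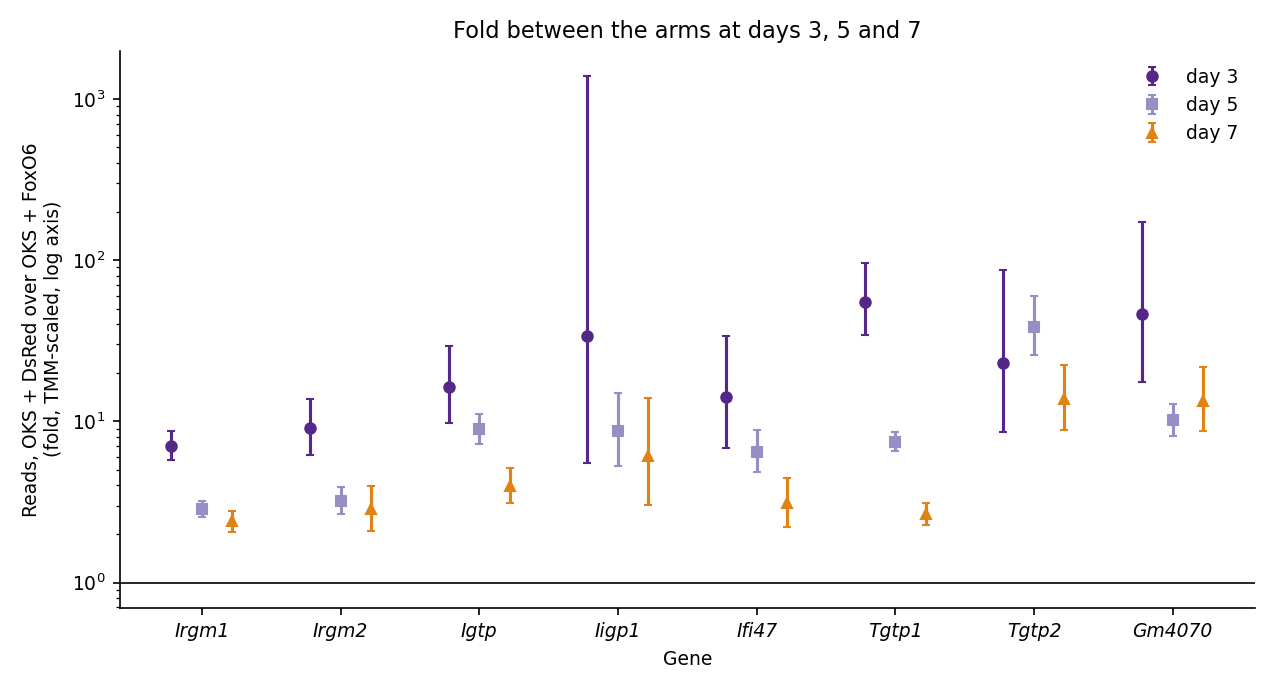
Fold of TMM-scaled reads, OKS + DsRed over OKS + FoxO6 (log axis), for each gene at days 3, 5 and 7, with exact conditional 95% intervals. All 24 intervals lie above 1, and the folds of Irgm1 and Irgm2 at days 5 and 7 (2.39 to 3.21) lie below those of Tgtp2 (38.6 and 13.7) and Gm4070 (10.2 and 13.4). The intervals leave out how reads shared with near copies were divided. Summed, Tgtp1 and Tgtp2 gave 10.2 and 3.62 at days 5 and 7, and Gm4070 and Gvin1 gave 10.2 and 6.88. At day 7 the interval of the Tgtp sum (3.14 to 4.18) overlaps that of Irgm2 (2.09 to 3.98).

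Within the DsRed arm, 8 of 8 members were higher than at day 0 by more than 2-fold on TPM + 1 on each of days 3, 5 and 7, where 25.3%, 26.7% and 26.2% of all genes were. Within the FoxO6 arm 5, 8 and 7 members were higher on those days, where 16.1%, 19.6% and 17.3% of all genes were. The exceptions at day 3 were Iigp1, Tgtp2 and Gm4070, and at day 7 Gm4070. Irgm1 was the member that began highest, and its reads at day 5 were 21.7 times (15.3 to 31.7) those of day 0 in the DsRed arm and 11.2 times (8.19 to 15.8) in the FoxO6 arm. Tgtp2 had 0 reads at day 0 in the DsRed arm, and Tgtp1 had 0 in the FoxO6 arm. With 3 reads put in place of each 0, they were 175-fold and 87.6-fold higher at day 5 in these arms. From the listed reads, the exact conditional intervals of these folds had lower limits of 142 and 70.7. The near copy did have reads at day 0, 2 for Tgtp1 with DsRed and 1 for Tgtp2 with FoxO6. Each 0 thus also rests on how shared reads were divided.

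All 8 members were highest at day 5 in the DsRed arm, and day 7 was lower for each. The reads of day 5 exceeded those of day 7 by 1.61 times (1.46 to 1.78) for Irgm1 and by 2.03 to 2.55 times for the other 7. In the FoxO6 arm, 7 members had their highest TPM at day 5 and Tgtp1 at day 7. There the day 5 over day 7 ratio was 2.97 (1.84 to 4.98) for Gm4070, 2.27 (1.65 to 3.17) for Irgm2 and 1.36 (1.16 to 1.59) for Irgm1. For Igtp, Iigp1, Ifi47, Tgtp1 and Tgtp2 the interval of that ratio included 1, so days 5 and 7 could not be told apart with FoxO6. The difference between the arms narrowed from day 5 to day 7 for Igtp, Ifi47, Tgtp1 and Tgtp2 as the DsRed level came down while the FoxO6 level stayed close.

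The 8 members together took 0.00497%, 0.00455%, 0.135%, 0.339% and 0.155% of the reads of the DsRed libraries at days 0, 1, 3, 5 and 7. In the FoxO6 libraries they took 0.00346%, 0.00414%, 0.00949%, 0.0565% and 0.0446%. Irgm1 alone gave 75.3% of the summed TPM at day 0 with FoxO6 and 77.7% with DsRed, and at day 5 it gave 46.1% with FoxO6 and 23.1% with DsRed. The GKS effectors held 47.6% (Wilson 95% interval 45.4 to 49.9) of the reads of the 7 immunity related GTPases at day 3 with DsRed and 16.3% (11.7 to 22.3) with FoxO6. At day 5 the shares were 55.7% (54.2 to 57.2) and 33.1% (30.3 to 36.0), and at day 7 they were 49.7% (47.7 to 51.6) and 43.1% (39.4 to 46.9). Among days 3, 5 and 7 the gap was smallest at day 7. These intervals too cover counting error only, from 1 library each, so whether the arms differ beyond the spread between cultures was not tested. At days 0 and 1, with 37 to 65 reads a library, the shares were 3.13% to 10.8%.

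**Figure D4:**
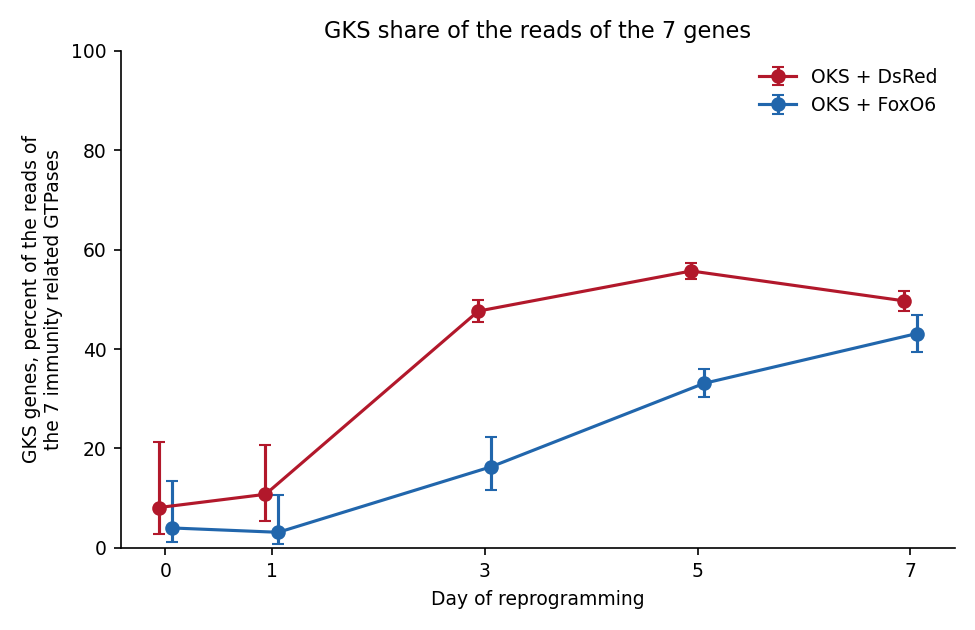
Reads of the GKS genes (Iigp1, Ifi47, Tgtp1 and Tgtp2) as a percent of the reads of the 7 immunity related GTPases, by day and arm, with Wilson 95% intervals. The share stands at 47.6% to 55.7% from day 3 with DsRed, and at 16.3%, 33.1% and 43.1% at days 3, 5 and 7 with FoxO6.

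The order of the levels shifted with day and arm. In the DsRed arm at day 3, Irgm1 and Tgtp1 did not differ beyond their counting intervals and were followed by Igtp, while Irgm2, Ifi47 and Tgtp2 each overlapped the next. At day 5 the order was Tgtp1, Irgm1, Igtp, Tgtp2, Ifi47, Irgm2, Gm4070 and Iigp1, with no overlap between neighbours. In the FoxO6 arm Irgm1 stood first and Tgtp1 next at days 3, 5 and 7, and from Tgtp1 down all neighbours overlapped at day 3. At day 5 Tgtp2 stood above Ifi47, Irgm2 and Gm4070 with DsRed and below all 3 with FoxO6, where its interval overlapped that of Gm4070. At day 7 with FoxO6 every neighbour from Igtp down to Gm4070 overlapped the next.

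Some members cannot be told apart from their neighbours in sequence, which bears on their single values. Of the 50-base stretches of the annotated transcripts, 81.2% of Tgtp1 and 86.6% of Tgtp2 occurred in another gene as well, mostly in each other, and 97.8% of Gm4070 did, with 95.0% in Gvin1 alone, another very large GTPase. For Irgm1, Irgm2, Igtp, Iigp1 and Ifi47 the share was 0.31% to 11.8%. Summed, Tgtp1 and Tgtp2 stood at 413, 1020 and 391 TPM with DsRed at days 3, 5 and 7 and at 11.2, 102.5 and 107.5 TPM with FoxO6, folds of 49.2 (31.9 to 79.9), 10.2 (9.02 to 11.6) and 3.62 (3.14 to 4.18). Tgtp1 took 91.0%, 66.6% and 66.8% of the reads of the pair at days 3, 5 and 7 with DsRed and 83.2%, 91.2% and 91.4% with FoxO6, so the order of the arms turned between days 3 and 5, and the split rests on the authors' estimate of how shared reads divide. Gvin1 was listed at exactly the TPM of Gm4070 in 3 libraries, 0.61 at day 1 with DsRed and 0.53 and 2.75 at days 3 and 7 with FoxO6, and at 0 in the other 7. With Gvin1 added, the fold of Gm4070 was 20.6 (10.5 to 45.9) at day 3 and 6.88 (5.003 to 9.68) at day 7, about 2 times smaller than alone, and unchanged at 10.2 at day 5. Olfr56 spans Ifi47 on the same strand and Tgtp1 and Tgtp2 on the other, and it reached 17.8 TPM at day 5 with DsRed against 2.19 TPM with FoxO6.

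Over all 5 days, a fit of arm with day as a block (edgeR's quasi-likelihood fit on the rounded expected counts) gave each member a log2 fold change, FoxO6 minus DsRed, and its standard error. These were −1.37 ± 0.30 for Irgm1, −1.75 ± 0.39 for Irgm2, −2.91 ± 0.30 for Igtp, −3.13 ± 0.39 for Iigp1 and −2.46 ± 0.35 for Ifi47. For Tgtp1 the value was −3.08 ± 0.55, for Tgtp2 −4.43 ± 0.40 and for Gm4070 −3.11 ± 0.48. All 8 passed the filter on low counts, and 71 of 71 values recomputed with another scaling, filter, tool or day left out stayed below 0, with 14 of them moved by more than 1 standard error. Since the members were picked as lower in these same libraries, the sign of these values carries no support of its own. Without day 3 Tgtp1 was at −2.23 and without day 7 at −3.93, and without day 5 Tgtp2 was at −3.70. The median over all 12139 genes tested was −0.02. In the same fit 840 genes, 6.92% of those tested, were called lower with FoxO6 at an adjusted p under 0.05, and 812, 6.69%, were called higher, which is the background for the lists that follow.

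The other immunity related GTPases were mostly too low to test. Of 11 measured, 4 were tested and 3 were called lower. Gm12250, also called Irgb10, reached 18.1, 103.5 and 39.0 TPM at days 3, 5 and 7 with DsRed and 0, 8.96 and 8.28 TPM with FoxO6 (log2 fold change −3.19 ± 0.53, edgeR adjusted p = 0.00379). Gm4951, a near relative of Iigp1, had a log2 fold change of −3.53 ± 0.56 (edgeR adjusted p = 0.00424). 9930111J21Rik2 was the third, at −1.10 ± 0.33 (edgeR adjusted p = 0.0467). Irgq, a relative without a clear interferon response, stood at 10.8 to 23.3 TPM in all libraries (log2 fold change 0.10 ± 0.15, edgeR adjusted p = 0.738). None of the 4 measured other very large GTPases, Gvin1 among them, had reads enough to test.

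The guanylate binding proteins, interferon-inducible GTPases that act on the same vacuoles, were called lower in 5 of 9 tested and higher in 0. At day 0 the order was the other way, with 4 of the 5 genes at 1 TPM or more higher with FoxO6 by more than 2-fold and a median difference of 1.83 in log2(TPM + 1), for Gbp2 from 19 reads against 2. Gbp4 stood at 27.9, 57.8 and 56.9 TPM at days 3, 5 and 7 with DsRed and at 1.67, 3.11 and 4.27 TPM with FoxO6 (log2 fold change −3.65 ± 0.31, edgeR adjusted p = 6.96e-05). Gbp6 (−3.04 ± 0.59, edgeR adjusted p = 0.00676) and Gbp7 (−1.90 ± 0.30, edgeR adjusted p = 0.00246) fell too. Gbp9 and Gbp2, named after their values were seen, were the other calls. Gbp2b, Gbp3, Gbp5 and Gbp10 had edgeR adjusted p of 0.0603, 0.0717, 0.0707 and 0.0546 with log2 fold changes of −1.47, −1.31, −2.17 and −1.97.

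In the interferon gamma pathway, 3 of 12 tested genes were called lower and 1 higher. The ligand Ifng was listed at 0 in 9 libraries and at 0.9 TPM at day 7 with DsRed. The receptor chains Ifngr1 and Ifngr2 had log2 fold changes of 0.07 ± 0.18 and 0.23 ± 0.17 (edgeR adjusted p = 0.84 and 0.43), and the receptor kinases Jak1 and Jak2 of 0.33 ± 0.12 and −0.04 ± 0.13 (edgeR adjusted p = 0.105 and 0.887). Irf1, a transcription factor that interferon gamma induces early, fell by 1.79 ± 0.29 on the log2 scale (edgeR adjusted p = 0.00262), and Nlrc5, the activator of MHC class I genes, fell by 3.04 ± 0.51 (edgeR adjusted p = 0.00343). Of the feedback inhibitors, Socs1 had a log2 fold change of −0.84 ± 0.42 (edgeR adjusted p = 0.227), and Socs3, named after its values were seen, was higher with FoxO6 at 0.90 ± 0.12 (edgeR adjusted p = 0.000714).

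In the type I pathway 0 of 8 tested genes were called in either direction by edgeR over the 5 days together. Ifnb1 and 6 other type I interferon genes were listed at 0 in all libraries, and the last, Ifnab, had 1 read at day 7 with DsRed and 1 at day 5 with FoxO6. Stat2 (−0.62 ± 0.25, edgeR adjusted p = 0.127) and Irf9 (−0.63 ± 0.27, edgeR adjusted p = 0.163) did not pass. At day 3 alone, 4 of the 8 genes of this list at 1 TPM or more were lower by more than 2-fold and 0 were higher, where 15.5% of all genes were lower. Stat2 stood there at 162 TPM with DsRed and 61.5 TPM with FoxO6, and Irf9 at 118 and 34.3 TPM. At day 5, 1 of 8 was lower and 0 were higher, and at day 7, 1 of 9 was lower and 1 was higher. Of 19 effectors that type I interferon is known to induce, 5 were called lower and 0 higher by edgeR, and the 3 largest were Oasl2 (−1.94 ± 0.44, edgeR adjusted p = 0.0158), Ifi44 (−1.83 ± 0.43, edgeR adjusted p = 0.0212) and Zbp1 (−1.39 ± 0.29, edgeR adjusted p = 0.0103). Cmpk2 and Ddx58, named after their values were seen, were the other calls.

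The lists also differed by day. At day 3 the median difference in log2(TPM + 1) was −3.74 for the members, −2.74 for the guanylate binding proteins and −1.56 for the type I effectors, over genes at 1 TPM or more in either library. At day 5 the medians were −2.81, −1.90 and −1.02, and at day 7 they were −1.92, −1.47 and −0.12, beside −0.20 for all genes. At day 3, 8 of 8 members, 9 of 10 guanylate binding proteins and 14 of 19 type I effectors were lower by more than 2-fold, where 15.5% of all genes were. At day 5 the counts were 8 of 8, 10 of 11 and 10 of 19, where 15.0% of all genes were. At day 7 they were 8 of 8, 8 of 10 and 1 of 19, where 21.2% of all genes were. These counts compare 2 libraries on each day and were not tested against each other.

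**Figure D5:**
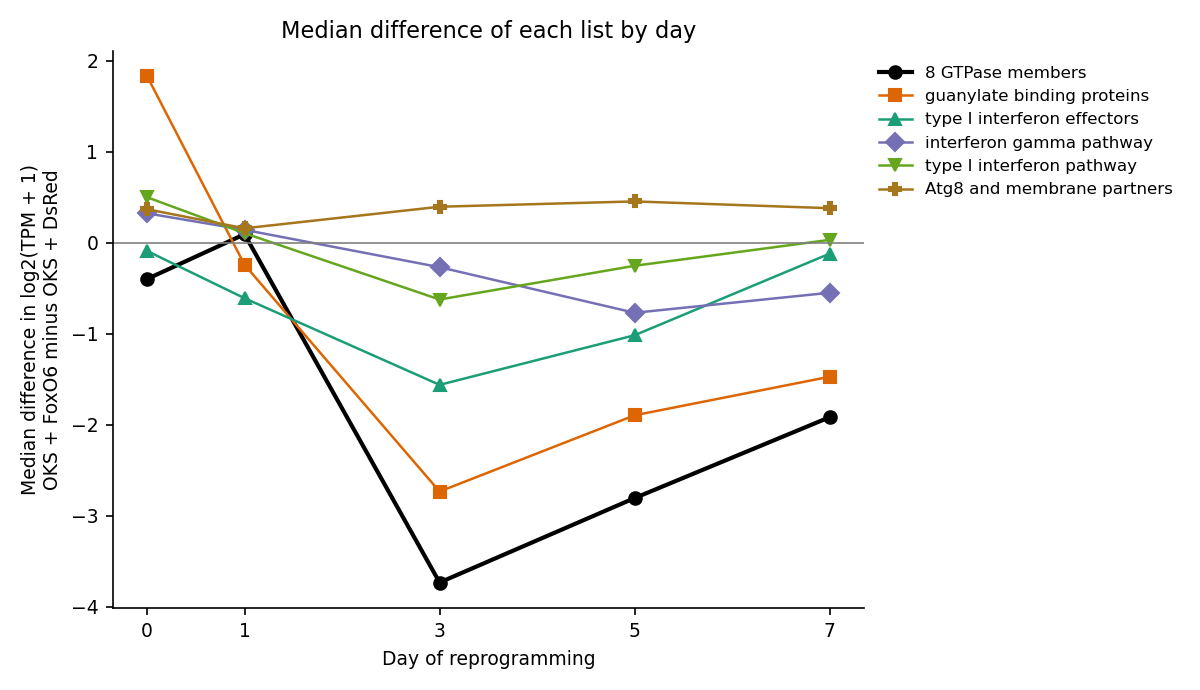
Median difference in log2(TPM + 1), OKS + FoxO6 minus OKS + DsRed, of the 8 members and 5 other lists by day, over the genes of each list at 1 TPM or more in either library. From day 3 to day 7 the members go from −3.74 to −1.92, the guanylate binding proteins from −2.74 to −1.47 and the type I interferon effectors from −1.56 to −0.12. The day 0 medians of the members (−0.40 over these genes) and of the guanylate binding proteins (1.83) rest on 5 genes each, most of them with few reads.

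The proteins that place GTPases of this family on membranes and vacuoles, the Atg8 conjugation machinery and its partners, went the other way or did not pass. Of 14 tested, 4 were called higher and 0 lower by edgeR. Map1lc3b, the autophagosome protein LC3B, was higher with FoxO6 by 0.90 ± 0.14 on the log2 scale (edgeR adjusted p = 0.00185), the autophagy receptor Sqstm1 by 0.77 ± 0.15 (edgeR adjusted p = 0.00649) and the Atg8 protein Gabarapl1 by 0.75 ± 0.14 (edgeR adjusted p = 0.00583). Gabarap, named after its values were seen, was the other call. The conjugation genes Atg3, Atg5, Atg7, Atg12 and Atg16l1 had log2 fold changes between −0.01 and 0.39, and none passed.

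Calls in these lists depended on single days. Without day 5, the calls of Gm12250, Gm4951, 9930111J21Rik2, Gbp2, Gbp6, Oasl2, Ifi44, Zbp1, Cmpk2, Ddx58 and Gabarap were lost, with edgeR adjusted p of 0.0815 for Gm12250 and 0.0952 for Gm4951, and without day 3 those of Ifi44, Gbp2, Cmpk2, Ddx58, Gabarap and 9930111J21Rik2. Without day 1 the calls of 9930111J21Rik2, Cmpk2 and Ddx58 were lost, and without day 7 that of 9930111J21Rik2. Gbp4, Gbp7, Gbp9, Irf1, Nlrc5, Socs3, Map1lc3b, Sqstm1 and Gabarapl1 kept their calls with each day left out.

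Marker genes of other cells moved too. Cd68, the macrophage marker with the highest level, was not called (log2 fold change −0.50 ± 0.33, edgeR adjusted p = 0.379). It stood at 7.95 TPM at day 0 with DsRed and 23.4 TPM with FoxO6, at 52.0 and 21.6 TPM at day 1, and at 52.6 and 23.7 TPM at day 3. At day 5 it stood at 20.1 and 24.4 TPM and at day 7 at 18.5 and 15.8 TPM. The other 10 macrophage genes did not exceed 6.17 TPM (Lyz2) in any library, and Ptprc, Adgre1 and Csf1r did not exceed 0.6 TPM. Itgam stood at 0.45 TPM with DsRed and 4.36 TPM with FoxO6 at day 7. Kdr (2.20 ± 0.57, edgeR adjusted p = 0.029) and Tek (0.96 ± 0.13, edgeR adjusted p = 0.00112), both endothelial receptors, were higher with FoxO6, while Pecam1 and Cdh5 stayed at 5.73 TPM or less. That highest value was Pecam1 at day 7 with DsRed, from 18 reads, against 0.76 TPM from 2 reads with FoxO6. Kdr lost its call without day 3 and without day 5. Of 10 fibroblast genes 3 were called higher with FoxO6 and 1 lower, Dcn by the most (1.16 ± 0.23, edgeR adjusted p = 0.00836), followed by Pdgfra (0.96 ± 0.24, edgeR adjusted p = 0.0227) and Postn (0.70 ± 0.17, edgeR adjusted p = 0.0209). Pdgfra lost its call without day 0, 3 or 5 and Postn without day 1 or 5, and the gene called lower was Col3a1, named after its values were seen, which lost its call without day 1, 3 or 5. The part of these genes in the result was not tested.

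The members tracked each other across the 10 libraries, which share arm, day and depth, with Pearson's r of log2(TPM + 1) from 0.79 (Tgtp1 with Gm4070) to 0.99 and a median of 0.94 over the 28 pairs. Among 11422 genes compared, the 5 other genes whose levels followed the mean of the members most closely were Tap1 (r = 0.98), Erap1 (r = 0.98), Gm4951 (r = 0.98), Rnf114 (r = 0.97) and Pdzph1 (r = 0.97). Tap1, which carries peptides to MHC class I, was measured at 131, 291 and 194 TPM with DsRed and at 15.5, 44.7 and 41.8 TPM with FoxO6 at days 3, 5 and 7. Erap1, which trims those peptides, was measured at 35.4, 68.7 and 47.9 TPM with DsRed and at 15.8, 24.0 and 20.3 TPM with FoxO6. These correlations are a description over 10 libraries of one time course.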

How the data were processed

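mRNA libraries were made from 10 MEF samples, grouped by the arm and day in their titles. The labels name the VAHTS mRNA-seq V3 kit and the methods of the study a TruSeq kit, and strand is not given in the sources used here. Using Bowtie2 and RSEM, the authors mapped reads to the GENCODE M13 transcriptome (mm10) and deposited expected counts per gene, unnormalized, in which RSEM divides reads that match several genes. TPM and FPKM values from the same RSEM run were deposited by the authors beside them, and the FPKM values were not used. A series table holds the expected counts of 48476 genes and files per library hold 50600. All values of the shared genes were identical, and 0 columns matched no sample.

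The members, lists and tests were chosen with earlier results of these data known. Differences were taken in log2(TPM + 1), over genes of at least 1 TPM in either library, with a 2-fold threshold. Reads were scaled by edgeR's TMM, and 95% intervals were exact Poisson, exact conditional binomial or Wilson. For the arm over the 5 days, expected counts were rounded and fitted with edgeR 4.0.16 in R 4.3.3 (quasi-likelihood, day and arm, 4 residual degrees of freedom, filterByExpr, Benjamini-Hochberg over 12139 genes). The days of an arm stand in for replicates, so p-values measure only the spread between these libraries. Named were the members, Foxo6, fixed genes of the pathway, the 3 largest calls of each list and the 5 genes of mean TPM at least 5 most like the members. Alternatives were a pseudocount of 0.1, TMM or total scaling, a minimum of 10 reads, summed near copies, DESeq2 or its size factors, a fit with no filter, a fit that ignores the day and fits on 4 days. One named gene is not reported here. Promoters came from RefSeq, and 6 of 8 members matched.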

Additional observations from a re-analysis of the deposited data

How the results depend on the processing

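At days 3, 5 and 7 every member was lower by more than 2-fold under each alternative run (a pseudocount of 0.1, TMM and library-total scaling, a minimum of 10 reads, and near copies summed, which leaves 7 or 6 values), and the median difference ranged from −4.36 to −3.58 at day 3, −2.92 to −2.69 at day 5 and −1.95 to −1.78 at day 7. The sum with Igtp and Irgm2 and with the other very large GTPases joined was chosen after seeing the data. At days 0 and 1 the count of 1 lower member became 2 with a pseudocount of 0.1 and 0 with at least 10 reads or with near copies summed in either way. The day 1 difference of Gm4070, 1.25 on TPM + 1, was −0.093 with TMM and −0.077 with library totals, from 4 reads in each library. Under a pseudocount of 0.1 the members raised at day 3 with FoxO6 numbered 7 instead of 5. The 840 lower and 812 higher calls over all genes became 550 lower with DESeq2, 44 lower and 124 higher without the day term, 543 lower without day 1, 346 and 416 without day 3 and 313 and 385 without day 5. With each day left out in turn the lower calls ranged from 313 to 849 and the higher calls from 385 to 849. Without the day term no gene of the interferon lists was called and 2 of the 4 Atg8 and partner genes stayed. With no filter 9 guanylate binding proteins and 10 type I effectors were called lower, with day 7 left out 11 type I effectors, with day 5 left out 0 type I effectors, 0 other immunity related GTPases and 3 guanylate binding proteins, with day 3 left out 2 type I effectors, and with DESeq2 1 other immunity related GTPase, 3 guanylate binding proteins and 1 interferon gamma gene. DESeq2 did not call Nlrc5, Gm4951, Gbp6, 9930111J21Rik2, Gbp2, Cmpk2, Kdr or Postn. Stat2 was called with no filter and without day 0, Irf9 with no filter and without day 7, and Jak1 without day 7, and Jak2 turned from −0.04 to 0.034 without day 7. Of the 71 recomputed fold changes of the members over the 5 days, 14 moved by more than 1 standard error. All 71 stayed below 0, which carries no support of its own since the members were picked as lower in these libraries. Taken as folds and not as log2 values, the recomputed values that moved by over 1.5 times were those of Irgm2 (−1.01 ± 0.81 with DESeq2), Tgtp1 (−3.72 with DESeq2, −2.23 without day 3 and −3.93 without day 7) and Tgtp2 (−3.20 with DESeq2 and −3.70 without day 5). The cause of these changes was not tested. The fit already pairs the arms by day, and no block on replicate numbers could be added because the labels carry none. With 1 library per arm and day, the spread between cultures is unknown, the depth leaves days 0 and 1 below what could be told apart for most members, and the days of an arm are not independent cultures by any label.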

Other observations

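Several genes that are not GTPases of this family lie beside the members on chromosome 11. Near Irgm1, Tgtp1, Tgtp2 and Ifi47, Rack1, a ribosomal scaffold protein, stood at 1154 to 1566 TPM in all 10 libraries (log2 fold change −0.13 ± 0.10, edgeR adjusted p = 0.484), and the ubiquitin ligase gene Trim41 had a log2 fold change of −0.03 ± 0.17 (edgeR adjusted p = 0.946). Trim7 stood at 0.56 ± 0.34 (edgeR adjusted p = 0.319). Around Igtp and Irgm2, Cnot8, Gemin5, Mrpl22, Zfp692 and Zfp672 had log2 fold changes between −0.15 and 0.40 and none was called, while Gm12250, the family member nearby, was. Psme2b, too low to test, was listed at 5.32 and 7.42 TPM at days 3 and 5 with DsRed and at 0 in the other 8 libraries. Olfr56, which overlaps members, had a log2 fold change of −2.19 ± 0.80 (edgeR adjusted p = 0.0999).

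Of the promoter windows of the other lists, the 5 given for guanylate binding proteins all held an ISRE and 2 of them a GAS as well. Of the 14 given for type I effectors, 10 held an ISRE and 3 both motifs. Of the 11 given for genes of the interferon gamma pathway, 1 held an ISRE and 4 a GAS. These are counts of letters in windows of one length and were not tested.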
